A study of Mus musculus with 24 samples.

Results

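The genes described here are 10 members of the TREM2-DAP12 signaling pathway of microglia, namely Trem2, Tyrobp, Syk, Plcg2, Inpp5d, Spi1, Mef2c, Cd33, Vav1 and Bin1. They were taken by symbol from the 32288 genes listed for each library, and each of the 10 had a row. The study sequenced single nuclei from the deep brain, where vessels of the mutants calcify, and from the cortex with hippocampus, where they do not. The mutants were 6 mice with both Pdgfb alleles of the ret kind (Pdgfb ret/ret, strain B6.Pdgfbtm3Cbet), and the controls were 6 Pdgfb ret/wt mice. The ret allele removes the retention motif of PDGF-B, the growth factor that recruits pericytes, throughout life and in every cell, and the heterozygous controls carry 1 copy of it. The 24 libraries, 1 per mouse and region, held 23625232 to 96459036 unique molecular identifiers (UMIs).

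Mice 1 to 3 of each genotype were between 5 months and 0 days and 5 months and 18 days old, and mouse 4 of each was 4 months and 24 days old. Mice 5 and 6 were 4 months and 7 or 9 days old. All were female apart from control mouse 6. Deep brain and cortical libraries with the same genotype and number had the same age and sex and were taken to come from 1 mouse.

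TREM2 is a receptor on the surface of microglia that binds lipids and lipoproteins such as those carrying apolipoprotein E. Its short tail cannot signal, and it pairs with the adaptor DAP12, the product of Tyrobp, whose phosphorylated tail recruits the kinase SYK. SYK acts on phospholipase PLCG2, on VAV1 and on other effectors that drive calcium release, phagocytosis and survival. SHIP1, the product of Inpp5d, dampens this signaling. CD33 is a sialic acid receptor known as inhibitory in human cells, and its role in mouse microglia was not examined here. PU.1, the product of Spi1, and MEF2C are transcription factors of the myeloid lineage, and BIN1 bends membranes in endocytosis. In microglia near damage this pathway is known for its part in the switch to an activated state.

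In the genome build GRCm38, Trem2 (ENSMUSG00000023992) lies on the plus strand at chr17:48346401-48354147 and Tyrobp (ENSMUSG00000030579) on the plus strand at chr7:30413760-30417585. Both are short genes, whereas Inpp5d (ENSMUSG00000026288) covers chr1:87620312-87720507 and Vav1 (ENSMUSG00000034116) chr17:57279100-57328031, also on the plus strand. Counts include introns and were counted over whole genes, so levels were compared for 1 gene at a time, across cell classes, regions and genotypes, and a ratio of the UMIs of a pair of genes only between kinds of nuclei. Genes on the opposite strand overlap Plcg2 (Gm27361) and Bin1 (A830052D11Rik), and how strand was used in counting is not given in the sources used here.

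PU.1 is known to bind purine-rich sites around the letters GGAA, and the stretch in front of the members' starts was read for such a site. The 7-letter motif GAGGAAG, or CTTCCTC on the other strand, was searched in the 250 bases before each start in the RefSeq table of promoters (GRCm38.p6). It was present in 3486 of 32851 windows, or 10.6%, and in 5 of the 10 windows that the table held for 7 members. The 5 windows belonged to Cd33, Inpp5d, Mef2c, Trem2 and Vav1, and the windows of the receptor, the phosphatase and the exchange factor are printed to show where the letters sit. Capitals mark the motif, the strand is plus, and the windows are chr17:48346151-48346400 for Trem2, chr1:87620062-87620311 for Inpp5d and chr17:57278850-57279099 for Vav1. The letters begin at base 210, 231 and 240 of the window, counted from its 5′ end. A match describes letters and says nothing of binding.
Trem2: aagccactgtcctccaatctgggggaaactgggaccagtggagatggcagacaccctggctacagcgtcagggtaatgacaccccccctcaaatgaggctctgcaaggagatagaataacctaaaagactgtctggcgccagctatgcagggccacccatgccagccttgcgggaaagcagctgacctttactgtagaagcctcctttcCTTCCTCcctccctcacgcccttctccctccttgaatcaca
Inpp5d: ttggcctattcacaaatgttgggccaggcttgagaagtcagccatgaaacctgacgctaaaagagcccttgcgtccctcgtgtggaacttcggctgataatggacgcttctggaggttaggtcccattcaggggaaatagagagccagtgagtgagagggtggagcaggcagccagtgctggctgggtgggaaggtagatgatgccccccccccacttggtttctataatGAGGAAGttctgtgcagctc
Vav1: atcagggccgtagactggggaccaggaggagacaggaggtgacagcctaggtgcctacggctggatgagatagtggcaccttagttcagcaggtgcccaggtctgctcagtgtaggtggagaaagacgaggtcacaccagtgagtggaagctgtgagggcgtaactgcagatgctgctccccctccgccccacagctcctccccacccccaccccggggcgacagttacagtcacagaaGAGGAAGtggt

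The limits of the study's methods, over 500 and under 7000 genes and under 20% mitochondrial UMIs, left 204925 nuclei. The microglial cluster, in which all 7 microglial markers of the list used were over 2-fold higher than in other nuclei, held 4812 nuclei in the deep brain. In the cortex it held 1941 nuclei. Also after the study's methods, any nucleus with a UMI of the border macrophage gene Mrc1, the oligodendrocyte gene Mbp, the astrocyte gene Aqp4 or the neuronal gene Rbfox3 was left out. This removed 2354 and 828 nuclei and left 1413 microglial nuclei of mutants and 1045 of controls in the deep brain, with 138 to 292 per library. In the cortex 697 nuclei of mutants and 416 of controls remained, with 19 to 325 per library. Barcodes shared by 2 libraries numbered 60 to 246 over 276 pairs, at most 2.37% of the smaller library. In the cortex 38878 kept barcodes, or 48.6%, fell into a cluster that could not be named, and 7 of the 12 cortical libraries had a median under 1500 UMIs per kept nucleus. Control cortex libraries 2 and 6 lay above 1500 UMIs, after 4073 of 6974 and 4753 of 7242 barcodes were left out for too few genes.

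In the deep brain 8 of the 10 members had most of their UMIs in the microglial cluster, and the exceptions were Mef2c and Bin1. Of all UMIs of Cd33 in kept deep brain nuclei, 95.1% lay in the microglial cluster, and the shares were 94.9% for Vav1, 94.1% for Inpp5d and 93.1% for Spi1. For the receptor Trem2 the share was 84.5%, for Syk 76.9%, for the adaptor Tyrobp 62.2% and for Plcg2 52.8%. Mef2c had 8.62% of its deep brain UMIs in the microglial cluster and 85.3% in neurons. Bin1 had 4.41% in microglia, 55.5% in neurons and 35.1% in oligodendrocytes, the cells that make myelin. In the cortex the microglial cluster held 84.9 to 87.6% of the UMIs of Inpp5d, Cd33, Spi1 and Vav1, but 65.8% for Trem2, 60.4% for Syk, 56.8% for Plcg2 and 41.5% for Tyrobp. Mef2c and Bin1 had 3.36% and 4.63% there.

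Levels are given as CPM, the UMIs of a gene over all UMIs of the nuclei summed, scaled to the same total in each library, and on this scale the order changed. Mef2c was at 262 ± 96.8 CPM in deep brain neurons and 778 ± 103 CPM in cortical neurons (SD, n = 12 libraries). In deep brain microglia the control libraries lay between 1492 and 2033 CPM and the mutant libraries between 1381 and 1794 CPM, above every library of neurons. Mef2c was also measured in endothelial cells and in mural cells of the deep brain, at 364 ± 77.1 and 467 ± 206 CPM. The mural cluster held 246 nuclei and was led in part by genes outside the mural list, such as Car8 and Pcp2. Its median depth per library ran from 1181.5 to 20018 UMIs, and whether it held other cells was not tested. Bin1 was the 1 member with a higher mean level outside microglia, at 681 ± 94.2 CPM in oligodendrocytes against 526 ± 75.2 CPM in microglia of the deep brain and at 695 ± 126 against 531 ± 115 CPM in the cortex. The ranges of both classes overlapped in each region.

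Trem2 and Tyrobp were low outside microglia but not at 0. In the deep brain 56.5% of microglial nuclei had a Trem2 UMI against 0.71% of neurons, whose median depth per library, 6456 to 11938 UMIs, exceeded the 1896.5 to 2617.5 UMIs of microglia. For Tyrobp the shares were 30.8% and 0.82%. In the cortex 67.3% of microglial nuclei and 1.57% of neurons had a Trem2 UMI, and 39.4% and 1.22% a Tyrobp UMI. No background share was measured, so the source of the UMIs in neurons was not tested.

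The ratio of Tyrobp UMIs, and of Trem2 UMIs, to those of Inpp5d was higher in the unnamed cortical barcodes than in the microglial clusters. These clusters were taken whole, before nuclei with markers of other cells were left out. The unnamed barcodes were shallow, with a median of 836 UMIs against 2429 in the cortical microglial cluster, and 9 of the 10 genes that led their cluster were mitochondrial. They held 38.7% of all cortical Tyrobp UMIs and 18.1% of the Trem2 UMIs. In them 424 Tyrobp UMIs were counted per 100 Inpp5d UMIs, against 14.7 in the cortical and 11.0 in the deep brain microglial cluster. For Trem2 the same ratio was 275, 32.4 and 27.1. The unnamed barcodes of mutant cortex 5 held 0 Inpp5d UMIs, so that library has no ratio there. Over the other cortical libraries the Tyrobp ratio in unnamed barcodes ran from 100 to 1400 and the Trem2 ratio from 125 to 500. Some ends rested on very few UMIs. The 100 was 2 over 2 UMIs in control 5, and in control 6 the 1400 was 14 over 1 and the 500 was 5 over 1. In the microglial cluster of all 12 cortical libraries the ranges were 11.2 to 24.5 and 24.5 to 44.3. Among the ratios that could be formed neither pair of ranges overlapped. The part of RNA quality and depth in these ratios was not tested.

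**Figure D1:**
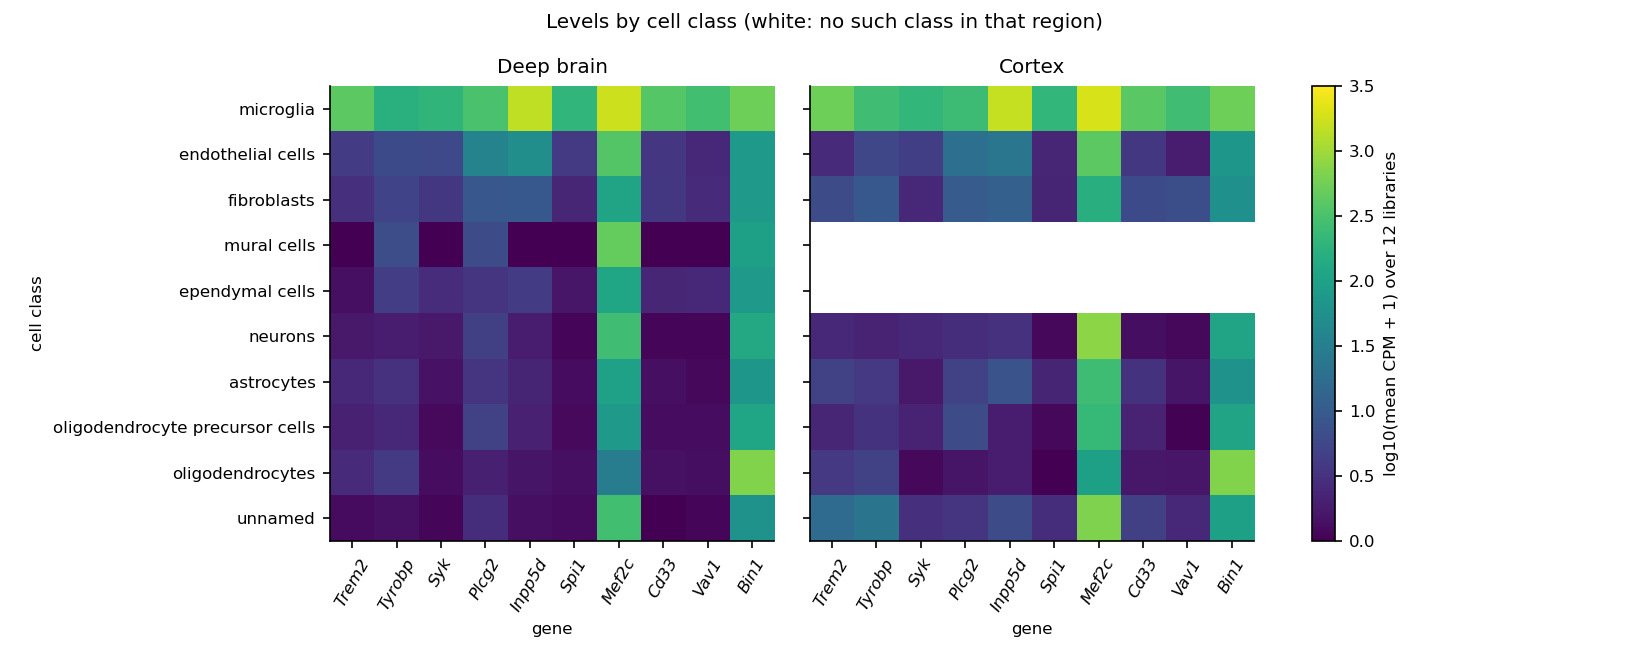
Each cell of the map gives log10 of the mean CPM plus 1 over 12 libraries, with cell classes in rows, the 10 genes in columns and the regions side by side; white fields are classes not found in the cortex. All genes but Bin1 were brightest in the microglial row, Mef2c was also bright in neurons, and Bin1 reached 681 CPM in deep brain oligodendrocytes.

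As a description over the 14 combinations of cell class and region, the genes whose mean log2(CPM + 1) was most like that of Trem2 were Crybb1 (Pearson r = 0.997), Ms4a6d (0.996) and Fcrls (0.996), out of 8053 genes. For Inpp5d they were Abi3 (0.992), Fes (0.990) and Cysltr1 (0.989). The points of a region share their libraries, and microglia lie far from the other classes, so that any gene restricted to microglia scores high.

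The first comparison asked whether microglia of the calcification-prone deep brain differed between mutants and controls. For none of the 10 members did the difference pass the test, and the CPM ranges of the genotypes overlapped for each. Trem2 was at 344 CPM in the lowest, 421 in the median and 460 in the highest of the 6 mutant libraries, and at 309, 448 and 488 CPM in those of controls. The ranges overlapped. Its log2 fold change, mutant over control, was −0.05 (95% interval −0.29 to 0.19; edgeR quasi-likelihood test, adjusted p = 0.986).

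Tyrobp was the 1 member with a positive log2 fold change in the fit. It was at 151, 174 and 206 CPM (lowest, median, highest) in mutants against 130, 154 and 170 CPM in controls. Its ranges overlapped too, although 4 of the 6 mutant libraries lay above every control library. Mutants over controls, its log2 fold change was 0.22 (95% interval −0.02 to 0.45; edgeR adjusted p = 0.891). The value depended on the removal of nuclei with markers of other cells, and was 0.11 with a limit of 2 UMIs and 0.02 with no removal.

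Downstream of the adaptor, Syk was at 158, 184 and 234 CPM in mutants and 176, 197 and 225 CPM in controls. Plcg2 was at 251, 298 and 349 CPM against 282, 318 and 366 CPM, and the exchange factor Vav1 at 225, 262 and 308 CPM against 242, 298 and 314 CPM. All 3 had lower medians in mutants and ranges that overlapped. Their log2 fold changes were −0.09 for Syk, −0.10 for Plcg2 and −0.14 for Vav1, with edgeR adjusted p of 0.974, 0.959 and 0.938.

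Inpp5d and Cd33 also had lower medians in mutants and overlapping ranges. Inpp5d was at 1282, 1383 and 1686 CPM in mutants against 1314, 1495 and 1755 CPM in controls. Cd33 was at 303, 352 and 423 CPM against 333, 407 and 447 CPM. Cd33 had the most negative log2 fold change of the members, −0.16 (95% interval −0.37 to 0.06; edgeR adjusted p = 0.927), and that of Inpp5d was −0.06 (−0.27 to 0.15).

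Of the transcription factors, Spi1 was at 176, 198 and 236 CPM in mutants and 174, 201 and 223 CPM in controls, and Mef2c at 1381, 1662 and 1794 CPM against 1492, 1705 and 2033 CPM. Bin1 was at 410, 521 and 658 CPM against 488, 513 and 680 CPM. Spi1, the lineage factor of all myeloid cells, had a log2 fold change of 0.00 (95% interval −0.22 to 0.22), so that a change of more than 1.16-fold in either direction lay outside its interval. The intervals of the other members in this comparison reached from 0.775 to 1.37-fold.

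Across all genes the edgeR test called 8 of 8053, or 0.0993%, and 0 of the 10 members, which all passed the filter on low counts. No member and 5.99% of all genes had an unadjusted p under 0.05, and DESeq2 called 16 genes and 0 members. The median log2 fold change was −0.07 over the members, 9 of them negative, and 0.00 over all genes. The other genes of the pathway lists gave no call either. These were 4 of 5 ligand and shedding genes that passed the filter, 3 of 15 receptors that use DAP12, 6 of 9 SRC and SYK family kinases, 35 of 35 downstream effectors, 11 of 19 inhibitors, 12 of 14 myeloid transcription factors and 12 of 14 further microglial genes near Alzheimer risk loci. The smallest p belonged to Apoe, a ligand of TREM2, with a log2 fold change of 0.83 ± 0.19 (SE; edgeR adjusted p = 0.11). Fyn, a SRC family kinase, had 0.46 (adjusted p = 0.66) and Vav3, a relative of Vav1, 0.75 (adjusted p = 0.74).

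Markers of other cells were read in the same nuclei. None of the 7 microglial, 6 neuronal, 5 oligodendrocyte, 3 astrocyte and 4 precursor markers tested was called by edgeR. Border macrophage markers summed to 0 to 40.0 CPM in mutants and 0 to 40.7 CPM in controls, and T cell markers to 64.3 to 215 CPM and 2.27 to 85.0 CPM. Leaving out the 74 deep brain nuclei with a T cell or border macrophage marker called 8 genes and 0 members.

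**Figure D2:**
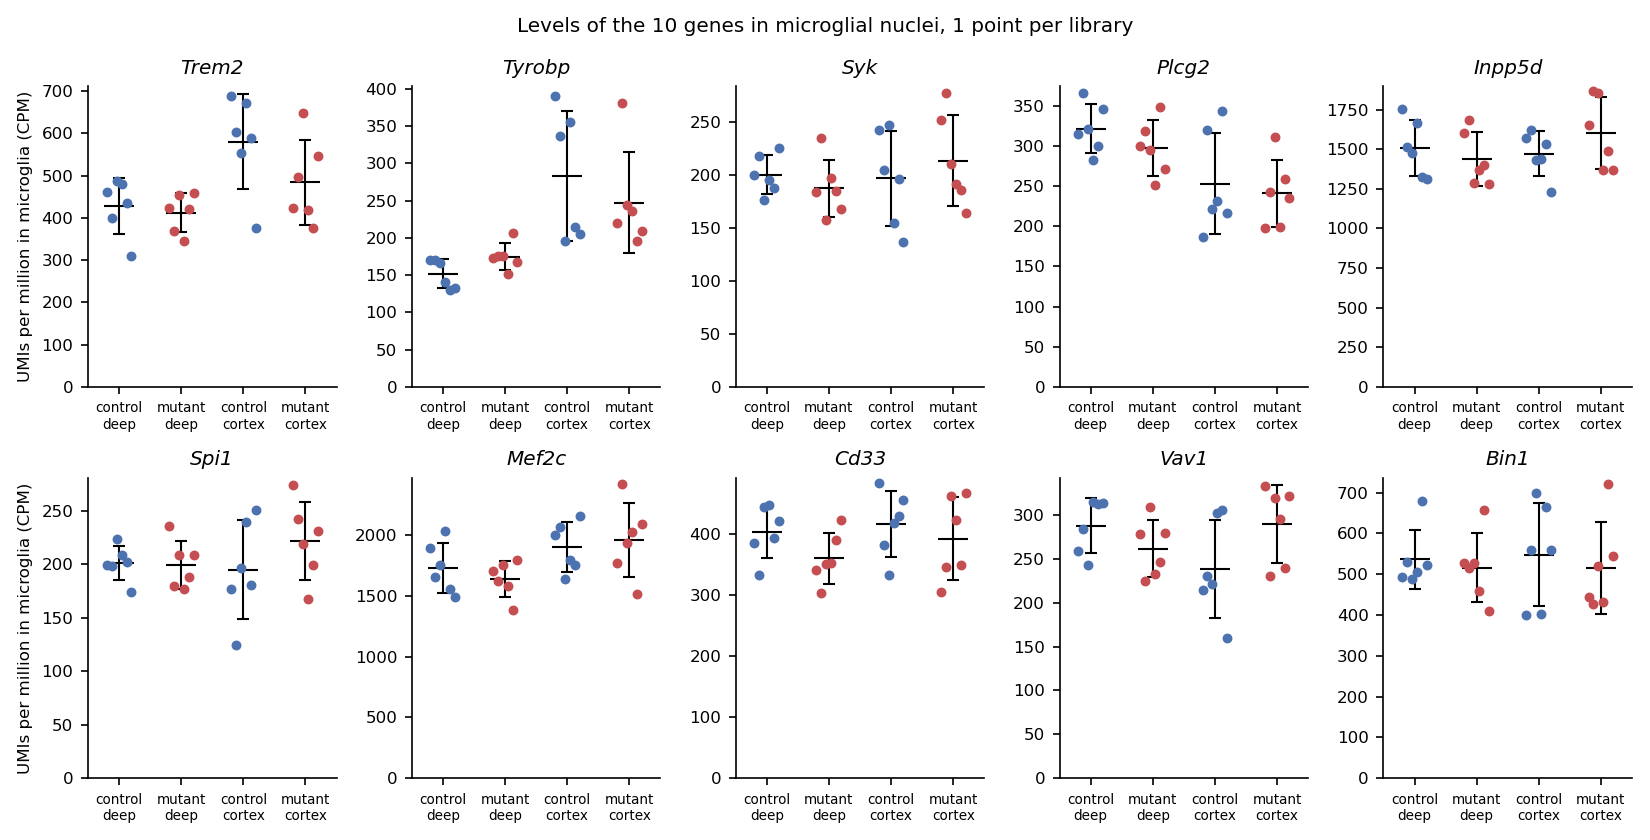
Each point is 1 library, the vertical axis gives CPM in microglial nuclei from 0, and bars are the mean and SD of 6 libraries; controls are blue and mutants red. In the deep brain the genotypes overlap for all 10 genes, and for Tyrobp the control cortex libraries, at 196 to 391 CPM, all lie above the control deep brain libraries, at 130 to 170 CPM.

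In the cortex, which stays free of calcification, the same comparison rested on fewer nuclei. Trem2 was at 375, 460 and 647 CPM (lowest, median, highest) in mutants and 376, 596 and 688 CPM in controls. The mutant median was lower but the ranges overlapped. This gave a log2 fold change of −0.29 (95% interval −0.61 to 0.04; edgeR adjusted p = 0.775), the most negative of the members.

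Tyrobp was at 196, 228 and 380 CPM in cortical microglia of mutants and 196, 276 and 391 CPM in those of controls, with a log2 fold change of −0.24 (95% interval −0.66 to 0.18). Vav1 had the most positive value, 0.23 (−0.11 to 0.57; edgeR adjusted p = 0.859). Its libraries lay between 231 and 332 CPM in mutants and between 160 and 305 CPM in controls. The lowest of these, control 6, held 14 Vav1 UMIs.

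Among the long genes of the pathway, Inpp5d lay between 1368 and 1868 CPM in mutants and between 1232 and 1624 CPM in controls. Mef2c lay between 1512 and 2421 CPM and between 1637 and 2155 CPM. For the 7 members other than Trem2, Tyrobp and Vav1 the log2 fold changes lay between −0.13 for Plcg2 and 0.19 for Spi1, and no group stood apart. EdgeR called 24 of 2843 genes, or 0.844%, and 0 members, with 0 members and 7.14% of all genes at an unadjusted p under 0.05, and DESeq2 called 31 genes and 0 members. No gene of the pathway lists was called.

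The contrast between the calcification-prone deep brain and the cortex was also read within each genotype, and the adaptor gene differed in controls. The study saw no vascular calcification in antibody-treated Pdgfb ret/wt mice, so in controls this is a contrast of regions and not of calcification. In control microglia Tyrobp was at 130, 154 and 170 CPM (lowest, median, highest) in the deep brain and at 196, 276 and 391 CPM in the cortex. The groups did not overlap, and Tyrobp was lower in the deep brain of 6 of 6 mice. The log2 fold change, deep brain over cortex, was −0.89 (SE 0.17, 95% interval −1.22 to −0.55), a level 0.541 times that of the cortex (edgeR quasi-likelihood test, adjusted p = 0.00787). Leaving out each mouse in turn gave −0.99 to −0.79 with adjusted p of 0.00895 to 0.0354, and DESeq2 gave −0.91 with an adjusted p of 0.000315.

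Trem2 leaned the same way. It was at 309, 448 and 488 CPM in the deep brain of controls and at 376, 596 and 688 CPM in the cortex, and lower in the deep brain of 6 of 6 mice, although the ranges overlapped. The log2 fold change was −0.47 (95% interval −0.76 to −0.18; edgeR adjusted p = 0.136), which did not pass the threshold. With the mouse as a block, which the pairing of the libraries allows, it was −0.45 (adjusted p = 0.0224) and passed, and that of Tyrobp was −0.90 (adjusted p = 0.000411). The blocked fit called 1.55% of all genes.

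None of the other 8 members passed the test between the regions of controls. Their log2 fold changes lay between −0.15 for Mef2c and 0.26 for Plcg2, whose libraries were at 282 to 366 CPM in the deep brain and 186 to 343 CPM in the cortex. Syk, Inpp5d and Spi1 had values of 0.00, 0.01 and 0.04, with intervals of −0.29 to 0.30, −0.21 to 0.24 and −0.25 to 0.34. EdgeR called 64 of 8943 genes in this comparison, or 0.716%, of which 33 were higher and 31 lower in the deep brain. Tyrobp and Trem2, 2 of the 10 members, had an unadjusted p under 0.05, as did 9.35% of all genes. The median over the members was −0.03 and over all genes 0.01. Of the pathway lists 1 of 35 effectors passed, higher in the deep brain, and no ligand, receptor, SRC or SYK family kinase, inhibitor, transcription factor or risk gene did.

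Markers of microglia and of other cells moved with this result. Of the 7 microglial markers 2 were lower in the deep brain of controls, the receptor genes Fcrls (log2 fold change −0.87, edgeR adjusted p = 0.00414) and P2ry12 (−0.65, adjusted p = 0.0198). The 7 markers summed to 11049 to 15347 CPM there and to 14540 to 19819 CPM in the cortex. Of 7 neuronal markers tested 2 were lower and 1 higher in the deep brain, with the cortical transporter gene Slc17a7 at −2.40 and its subcortical relative Slc17a6 at 2.71. The neuronal list summed to 718 to 2024 CPM in the deep brain and 1278 to 2235 CPM in the cortex. Of 5 oligodendrocyte markers tested 2 were higher in the deep brain, Cnp among them by 1.45, and that list summed to 634 to 928 CPM against 344 to 622 CPM. The precursor gene Vcan was higher by 3.46, and Mrc1, Mbp, Aqp4 and Rbfox3 were at 0 because of the removal step. The part of these cells in the Tyrobp result was not tested.

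Depth also differed between the regions. Control cortex libraries held 28224094 to 34603641 UMIs over all barcodes, apart from control 5 with 95605387. Control deep brain libraries held 66559088 to 96459036 UMIs. The median microglial nucleus held 1866 to 4168.5 UMIs in control cortex libraries and 2146 to 2617.5 UMIs in the deep brain. With each nucleus thinned to 1000 UMIs, 10.6 to 17.9% of microglial nuclei had a Tyrobp UMI in the 6 deep brain libraries of controls and 20.7 to 40% in the 6 cortical libraries, after 14 and 4 shallower nuclei were left out. Of the 412 cortical nuclei so compared, 267 came from control mouse 5. Without thinning the ranges were 28.5 to 31.8% and 30.6 to 66.7%. For Trem2 the thinned shares overlapped, at 27.6 to 40.4% (median 36.0%) in the deep brain and 28.6 to 51.5% (median 39.0%) in the cortex. The part of depth in the regional result was not tested.

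In mutant microglia the regional difference of Tyrobp was smaller and did not pass the test. The deep brain libraries were at 151, 174 and 206 CPM and the cortical libraries at 196, 228 and 380 CPM. The ranges overlapped, and Tyrobp was lower in the deep brain of 5 of 6 mice. Over the 6 mice this gave a log2 fold change of −0.43 (95% interval −0.74 to −0.12; edgeR adjusted p = 0.246). The highest of these libraries, mutant 2, held 33 Tyrobp UMIs in 19 nuclei, and without that mouse the value was −0.33 (edgeR adjusted p = 0.543).

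Trem2 had a log2 fold change of −0.23 (95% interval −0.51 to 0.05; edgeR adjusted p = 0.678) between the regions of mutants. Plcg2 had the one positive value, 0.30 (0.03 to 0.57; adjusted p = 0.438), and Mef2c −0.27 (−0.49 to −0.05; adjusted p = 0.373). EdgeR called 111 of 8943 genes, or 1.24%, and 0 of the 10 members. At an unadjusted p under 0.05 there were 3 members, Tyrobp, Plcg2 and Mef2c, and 9.11% of all genes. The median over the members was −0.15 and over all genes 0.00. Without removal of the nuclei that carried markers of other cells, 6 members were called lower in the deep brain of mutants, where 6.2% of all genes were called, among them Tyrobp (−0.72, adjusted p = 0.00545), Trem2 (−0.52, adjusted p = 0.0181) and Mef2c (−0.60, adjusted p = 0.00204). The same step added Trem2 (−0.61, adjusted p = 0.0149) to the calls in controls, where 2.64% of all genes were called.

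Whether the regional difference itself depended on genotype was tested as an interaction. For Tyrobp the log2 fold change between the regions was higher by 0.46 in mutants than in controls (95% interval −0.0024 to 0.91; edgeR adjusted p = 1.00). For Trem2 it was higher by 0.24 (−0.16 to 0.64) and for Vav1 lower, at −0.36 (−0.75 to 0.03). EdgeR and DESeq2 each called 0 of 8943 genes, or 0%, where edgeR had 376 genes, or 4.20%, and 0 members at an unadjusted p under 0.05. The regional difference of Tyrobp was thus called in controls alone but was not shown to differ between the genotypes.

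**Figure D3:**
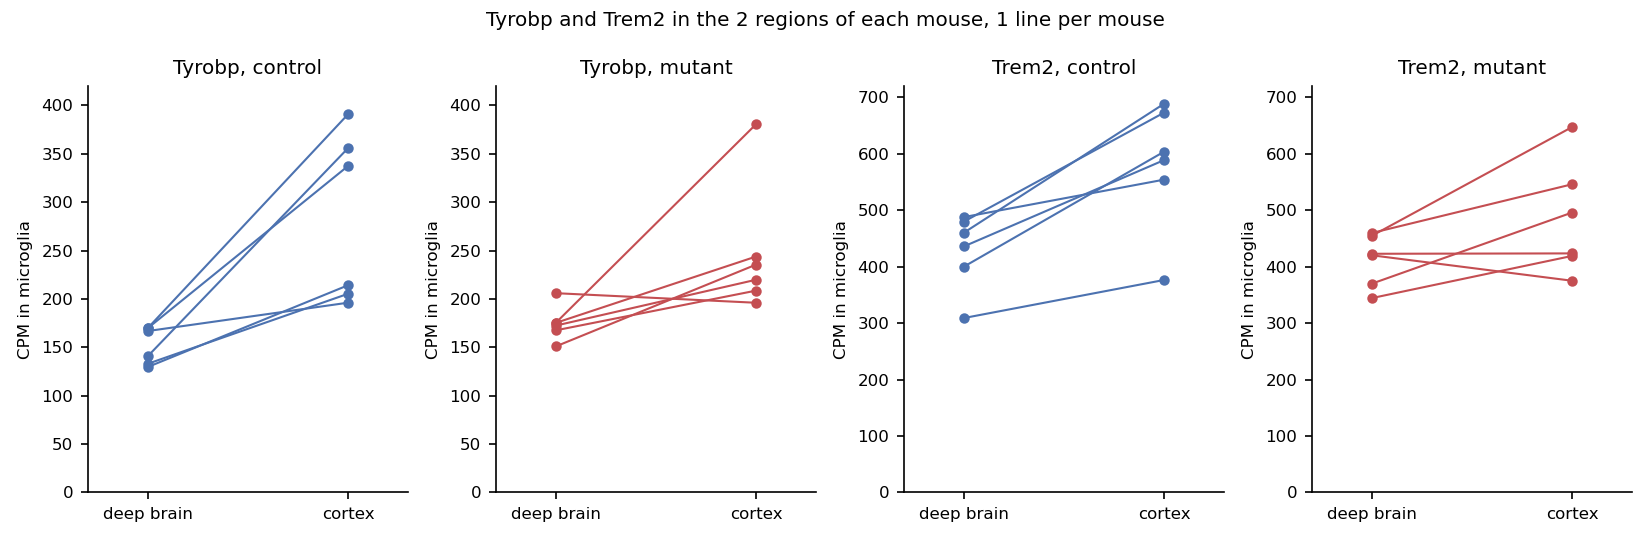
Each line joins the deep brain and the cortical library of 1 mouse, with CPM in microglia on the vertical axis; controls are blue and mutants red. The Tyrobp lines rise toward the cortex in 6 of 6 controls and 5 of 6 mutants, with the widest spread, 196 to 391 CPM, in the cortex.

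**Figure D4:**
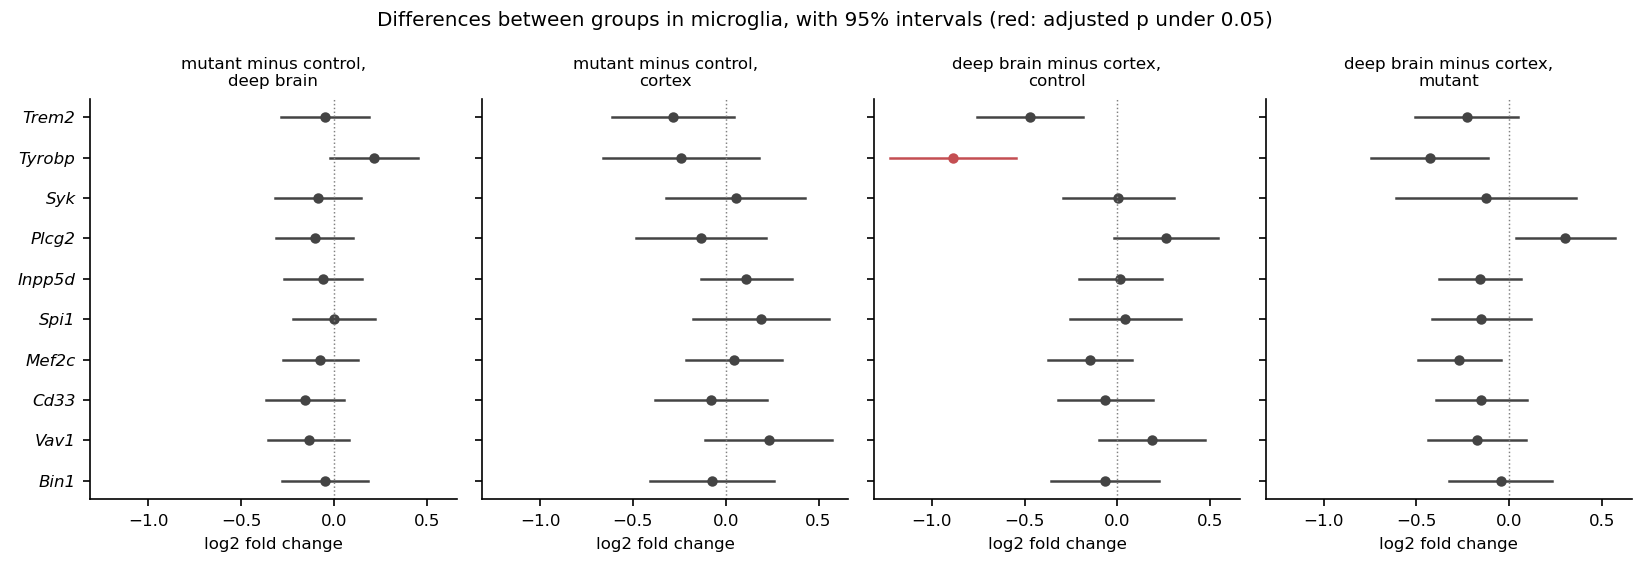
Points give the log2 fold change of each member in microglia and lines its 95% interval, for genotype in each region and for region in each genotype, on a shared axis. The red point is Tyrobp between the regions of controls, −0.89, the only member with an edgeR adjusted p under 0.05 in these 4 comparisons, fitted without the mouse as a block. With the block Trem2 passed there too, at −0.45.

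A small number of deep brain microglia carried genes of the activated state, and the members were compared between those nuclei and the rest of the same mouse. Nuclei with UMIs of at least 3 of 10 activated markers made up 28 of 1413 mutant and 4 of 1045 control nuclei. Per mouse the share was 2.08% ± 1.06 in mutants and 0.364% ± 0.431 in controls (SD, n = 6 each), a difference of 1.72 points. These markers were chosen with earlier results of these nuclei known, so the shares are a description and no test is given. With at least 2 markers the shares were 5.83% ± 1.51 and 2.27% ± 0.996, from 80 and 23 nuclei, a difference of 3.56 points. With nuclei thinned to 1000 UMIs and 3 markers the counts were 17 and 1 and the difference 1.23 points. Only the 3 mutants 3, 5 and 6 had at least 5 such nuclei, 19 in all, which held 55600 UMIs. The rule was not particular to the deep brain. In cortical libraries the 3-marker share was 0 to 5.26% in mutants and 0 to 4.76% in controls. With 2 markers it was 3.08 to 10.5% and 0 to 9.52%. The highest of these came from few nuclei, 19 in mutant 2 and 21 in control 6. Thinned to 1000 UMIs, only the cortex of mutant 4 held a 3-marker nucleus, 1 in number.

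For Trem2 RNA no difference between these nuclei and the rest was detected. RNA levels do not measure signaling. By staining, the study found phosphorylated DAP12 higher in CLEC7A-positive microglia around calcifications than in other microglia of the region. Trem2 was at 389 to 600 CPM, from 29 UMIs, in the activated-marker nuclei of the 3 mutants. It was at 415 to 463 CPM in their other nuclei, and higher in the activated-marker nuclei of 2 of the 3. The log2 fold change was −0.05 (95% interval −0.71 to 0.61; edgeR adjusted p = 0.977). Tyrobp gave −0.02 (−1.02 to 0.97), from 12 UMIs, at 95.6 to 300.1 CPM against 163 to 203 CPM and higher in 2 of the 3. Both signs go against the mean CPM, 521 against 442 for Trem2 and 224 against 182 for Tyrobp, and with RLE size factors in place of TMM the values were 0.04 and 0.06, so neither gene has a direction here. The median over all 5526 genes tested was −0.29 with TMM and −0.20 with RLE, and the intervals do not exclude changes of 1.53-fold for Trem2 and 1.96-fold for Tyrobp.

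The receptor gene Cd33 and the factor gene Spi1 had the lowest p among the members. Spi1 was at 0 to 95.6 CPM, from 3 UMIs, against 193 to 214 CPM in the other nuclei, a log2 fold change of −2.23 (95% interval −3.66 to −0.79; edgeR adjusted p = 0.126). Cd33 was at 111 to 420 CPM against 358 to 436 CPM, with −1.03 (−1.90 to −0.15; adjusted p = 0.317). Neither passed, and 0 of the 10 members was called where edgeR called 104 of 5526 genes, or 1.88%. At an unadjusted p under 0.05 there were 2 members and 11.4% of all genes, and DESeq2 called 43 genes and 0 members.

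Cd33 did pass when 2 markers sufficed, which took in 80 nuclei and all 6 mutants. It was then at 75.4 to 266 CPM in the activated-marker nuclei and at 308 to 451 CPM in the others, with no overlap and lower in 6 of 6 mutants. This difference was −1.05 on the log2 scale (95% interval −1.57 to −0.54; edgeR adjusted p = 0.0177), where 3.03% of all genes were called. Microglial markers fell in the same nuclei, where 6 of 7 were called, with log2 fold changes of −1.23 to −0.74. Among these P2ry12 was at 649 ± 206 against 1502 ± 173 CPM, Siglech at 538 ± 228 against 1075 ± 165 CPM and Cx3cr1 at 797 ± 109 against 1479 ± 86.5 CPM (SD, n = 6), each lower in 6 of 6 mutants. The study had reported P2ry12 and Siglech lower in its activated cluster. It had also reported Cx3cr1 lower in a cluster that joined these cells with disease-associated microglia of another dataset. These falls were thus known beforehand. The part of the marker fall in the Cd33 result was not tested. Spi1, by contrast, was at 47.9 to 297 CPM against 173 to 236 CPM, and its log2 fold change was −0.17 (−0.77 to 0.43). Inpp5d had −0.39 (−0.73 to −0.04; adjusted p = 0.323) and Bin1 −0.46 (−0.90 to −0.02; adjusted p = 0.373), with intervals below 0, but neither passed over all genes. Trem2 had −0.20 (−0.65 to 0.24) and Tyrobp 0.01 (−0.51 to 0.52), and the values of Syk, Vav1, Plcg2 and Mef2c lay between −0.32 and −0.03. The median over all genes was −0.04 here. With a limit of 2 UMIs for the removed markers Cd33 also passed, at −1.24 (adjusted p = 0.00687; 6.33% of all genes called), and without the filter on low counts Spi1 did, at −2.59 (adjusted p = 0.0249; 1.17% called).

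Around the members, 7 other genes of the pathway lists were called in the 19 nuclei with 3 markers, where 104 of 5526 genes, or 1.88%, were called. These 7 calls rested on all 3 mutants. Without mutant 3 none of the 7 was called, without mutant 5 Apoe and Lilrb4a were, and without mutant 6 Apoe alone, while all 7 kept their direction each time. All genes called then numbered 7 to 12 in place of 104, and DESeq2 called Apoe and Lilrb4a of the 7. With RLE size factors 6 of the 7 were called, and without the filter on low counts 5. With 2 markers 4 of the 6 that were tested were called, and with the limit of 2 UMIs 5 of 6. Apoe was higher with a log2 fold change of 2.44 ± 0.26 (SE; edgeR adjusted p = 1.55e-06), at 1440 to 2293 CPM against 232 to 456 CPM. The study had already reported Apoe higher, and P2ry12, Siglech and Tmem119 lower, in its activated cluster from these mice. It had also reported Csf1r and Cx3cr1 lower in the cluster joined with another dataset. The calls of these genes are therefore a description and no independent support. Fgr, a SRC family kinase, was higher by 2.85 and its relative Lyn lower, at −1.04. The inhibitory receptor gene Lilrb4a was higher by 4.30 and the transcription factor gene Mitf by 1.16. Csf1r, the receptor for colony-stimulating factor, was lower at −1.36 and Siglech, a receptor that signals through DAP12, at −1.55. Of the 7 microglial markers 6 were lower, and these 6 were also called with 2 markers, with the limit of 2 UMIs, without the filter on low counts and without nuclei with T cell or border macrophage markers, but 0 of them by DESeq2 or when any 1 of the 3 mutants was left out. With RLE size factors 5 of these 6 markers were called. Of the 35 effectors none was called, and the 9 activated markers tested were higher because they had chosen the nuclei. Flt1, among the activated markers, is also a gene of endothelial cells. The chosen nuclei of these 3 mutants had a median of 2327 to 2924 UMIs and their other nuclei of 1902 to 2271 UMIs, and the part of depth was not tested.

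**Figure D5:**
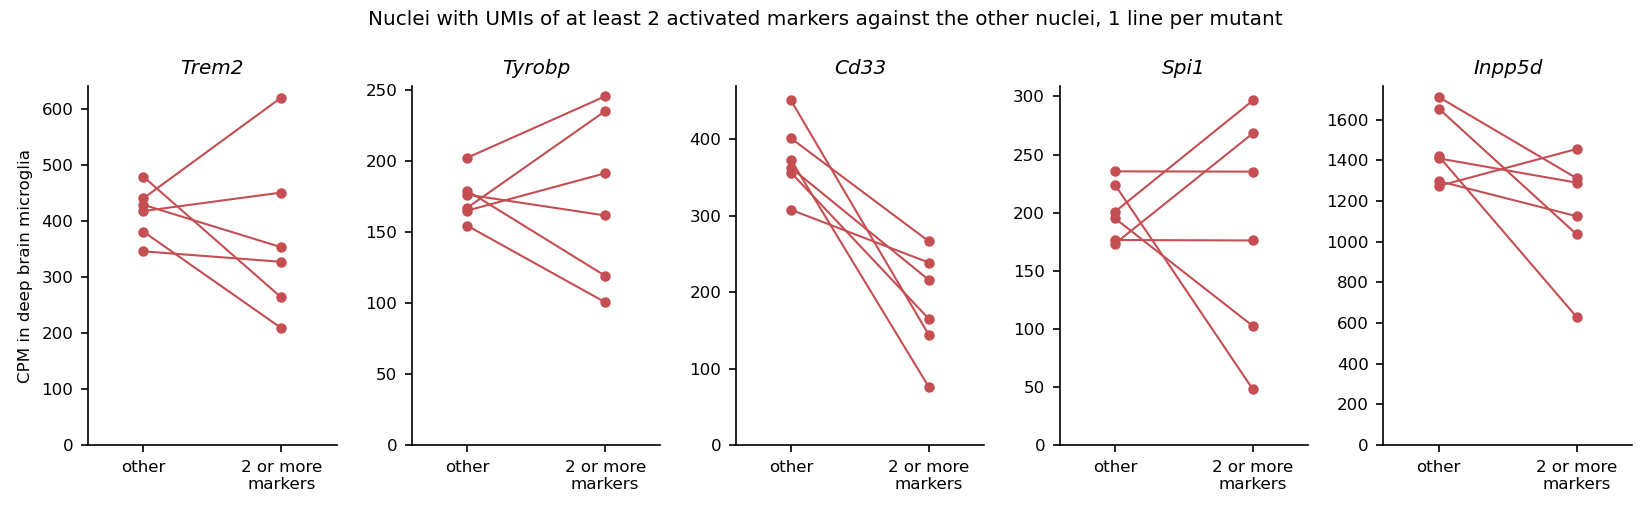
Each line joins, for 1 of the 6 mutants, CPM in the other deep brain microglial nuclei and in nuclei with UMIs of at least 2 activated markers. The Cd33 lines all fall, from 308 to 451 CPM to 75.4 to 266 CPM, while the Trem2 and Tyrobp lines run both up and down.

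Outside microglia the members were compared between genotypes in neurons and oligodendrocytes, where Mef2c and Bin1 had most of their UMIs. In deep brain neurons 7 members passed the filter and 0 were called, with 0.381% of 19970 genes called by edgeR. At an unadjusted p under 0.05, as for 12.3% of all genes, were 3 of them, Tyrobp at 0.68 (adjusted p = 0.177), Syk at −0.57 (adjusted p = 0.23) and Mef2c at −0.69 (adjusted p = 0.239). In deep brain oligodendrocytes 4 members passed and 0 were called, against 1.7% of 13518 genes, with Tyrobp at 0.77 (adjusted p = 0.0953), Mef2c at −0.83 (adjusted p = 0.159) and Bin1 at −0.22 (95% interval −0.42 to −0.03; adjusted p = 0.263), the 3 members with an unadjusted p under 0.05 beside 14.8% of all genes. The deep brain microglial cluster, before the removal step, held 2848 of 64604 kept nuclei of mutants and 1964 of 60354 of controls. After removal the share per library was 1.98 to 2.44% in mutants and 1.43 to 1.93% in controls. The part of microglial RNA in the Tyrobp values of other cells was not tested.

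In cortical neurons 7 members were tested and 0 called, with 0.00598% of 16733 genes called, and in cortical oligodendrocytes 2 members were tested and 0 called, against 0.891% of 10097 genes. Bin1 in cortical neurons had a log2 fold change of 0.04 (95% interval −0.09 to 0.18), and Mef2c 0.00 (−0.22 to 0.22). In these fits edgeR had 1 member at an unadjusted p under 0.05 in cortical neurons, Syk, and 6.96% of all genes there, and 0 members and 13.1% of all genes in cortical oligodendrocytes. DESeq2 called 0 members in all 4 comparisons outside microglia, beside 2.67% and 0.108% of all genes in deep brain and cortical neurons and 3.6% and 2.18% in deep brain and cortical oligodendrocytes.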

How the data were processed

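The authors processed the reads with bcl2fastq 2.20.0.422 and Cell Ranger 5.0.1 on mm10, introns included, and deposited UMI counts per gene and barcode, not normalized. The 10 members and all gene lists were chosen with earlier results of these data known. Nuclei were filtered as the study's methods state, scaled to 1000, and clustered on 2000 variable genes and 20 components (scanpy 1.11.5, Seurat 5.3.0, Python 3.11.15, R 4.3.3); no doublet caller was run. The removal limit of 1 UMI was chosen here. Counts were summed per library and class and tested with edgeR 4.0.16 (TMM, its filter on low counts, quasi-likelihood test, Benjamini-Hochberg adjustment over all genes, threshold 0.05), with DESeq2 1.42.0 as an alternative. All 4 groups of microglial libraries shared 1 fit for region and interaction. The script was tested on simulated data. Replicates were separate mice. Regions of a mouse share number, age and sex, and their deviations correlated by 0.00712 to 0.267; across genotypes the numbers named no shared litter. Beside the 10 members, the text names up to 4 called genes of each list, or else up to 2 with the smallest p. Positions are from GENCODE M21. Clec7a, an activated marker, had no row. Results for some genes of the lists are not reported here.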

Additional observations from a re-analysis of the deposited data

Results flagged for a closer look

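In 40 groups of 6 libraries, the 10 members in microglia of 4 groups, 2 held a library whose gap to its neighbour was large for the range of its group by Dixon's ratio, where chance gives about 1 in 20 groups. Bin1 was at 680 CPM in the deep brain of control mouse 5, from 320 UMIs, with the next control library at 529 CPM and the lowest at 488 CPM (ratio 0.786). Tyrobp was at 380 CPM in the cortex of mutant mouse 2, with the next mutant library at 244 CPM and the lowest at 196 CPM (ratio 0.741). That Tyrobp value rested on 33 UMIs in 19 nuclei, the fewest of any library.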

How the results depend on the processing

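Over all alternatives the 10 members gave 1190 values, of which 1090 kept direction and side of the threshold. Another 87 changed sign without a call (largest size 0.29 on the log2 scale), 11 gained a call, 2 lost one and 0 reversed while called. The 2 losses were Tyrobp between the regions of controls when the mice were divided at a cortical median of 1500 UMIs, which leaves fewer mice in each part. The log2 fold changes were then −0.78 in mice at or above the limit and −1.01 in those under it. That median is over all kept barcodes, unnamed ones included, and does not order the libraries by microglial depth. Counts of called genes moved more, and the cause was not tested unless named. For genotype in deep brain microglia DESeq2 gave 16, no filter 103, a limit of 2 UMIs 14, no male mouse (control 6) 26, the replicate block 15 and the age block 13, and leaving out single mice 6 to 26. In the cortex no filter gave 132, a limit of 2 UMIs 11, no removal 12, the replicate block 51, the age block 50 and libraries under and over 1500 UMIs 15 and 0, and leaving out mice gave 9 (without control 5) to 48 (without mutant 6), with 11 or 12 without mutants 1 or 4 or control 2. Between regions of controls no filter gave 194, no removal 322 (2 members), no male mouse 39, the block 139 (2 members), and mice with cortical libraries over and under 1500 UMIs 12 and 7 (0 members each); leaving out mice gave 33 (without control 2) to 45 (without control 4), with 36 to 41 without controls 1, 3, 5 or 6 and 1 member each time. In mutants no filter gave 332, no removal 758 (6 members), the block 194, cortical libraries over 1500 UMIs 5, and leaving out mice 60 to 97 (60, 70 and 64 without mutants 1, 3 and 5). The interaction had 39 without filter, 4 with the block and 0 to 2 without single mice (1 or 2 with mutant 6 or control 3 left out). In deep brain neurons DESeq2 gave 534 and the block 200, in cortical neurons DESeq2 18, in deep brain oligodendrocytes DESeq2 486, and in cortical oligodendrocytes DESeq2 220, no filter 200 and the block 569. For activated-marker nuclei DESeq2 gave 43, no filter 208, a limit of 2 UMIs 440 and leaving out mutants 3, 5 or 6 gave 7 to 12; 1 member was called without the filter, with 2 markers and with the limit of 2 UMIs. The share of such nuclei differed by 1.41 to 1.97 points without single mice. The division at 1500 UMIs and the removal of whole mice between regions were chosen after seeing the data. Across genotypes the deviations of same-numbered mice correlated by −0.140 to 0.179. Libraries taken to come from 1 mouse correlated by 0.00712 to 0.267, so these values cannot decide whether the numbers pair mice across genotypes. The replicate block called 0 members there. Cortical microglia, with as few as 19 nuclei per library, limit what could be detected.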

Other observations

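Csf1r, whose product shares DAP12 signaling with TREM2, split the mice in a way that genotype did not, a pattern noticed after its values were seen. In microglia of control mouse 1 and of mutant mice 1 and 4 it was at 1635 to 2466 CPM in both regions, 6 libraries in all. In the 18 libraries of the other 9 mice it was at 3997 to 6717 CPM. The low values rested on 265 to 984 UMIs per library.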
